A study of Caenorhabditis elegans with 6 samples.

Results

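The RNA population of the adult hermaphrodite germline of C. elegans was described from the 2 control libraries of a series of 6. Members were the libraries that the sample labels assign to control germlines, and the other 4 libraries (2 of “red-head” F1 germlines and 2 of germlines of their offspring) were not used. The controls were day 1 adult hermaphrodites of strain HBR1280, grown at 24 °C. The strain carries the insertion oxTi75, which expresses GFP::H2B from the eft-3 promoter with a tbb-2 3′ UTR, together with a copy of unc-18. Each library was made from pooled distal gonad arms that had been cut at the bend in late pachytene, and total RNA was depleted of rRNA before sequencing. With 1 group and n = 2 libraries, no test between groups was made, and each value is given for replicate 1 and then for replicate 2 so that the spread can be read directly.

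The distal gonad arm is a syncytium in which germ nuclei line a shared core of cytoplasm. Stem cells divide at the distal end under Notch signaling from the somatic distal tip cell, and their descendants enter meiosis and progress through pachytene towards the bend. Pachytene germ cells also act as nurse cells: they fill the core with ribosomes, proteins and maternal mRNAs that flow into growing oocytes, many of them held silent by RNA-binding proteins. Transcription from the X chromosome is largely silenced in these nuclei.

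Reads counted on genes numbered 7469633 in replicate 1 and 4980329 in replicate 2. A further 13.7% of the reads in each table fell on no gene, and 1.99% and 1.91% were ambiguous between genes. Shares are given as percent of gene counts or as CPM, which scales the gene counts of each library to the same total. Levels of different genes are compared as RPKM, which is CPM per kilobase of the longest transcript. Orders and sums given in CPM are shares of counts, in which transcript length also enters. A gene was called detected with at least 10 counts in both libraries and expressed with an RPKM above 15 in both. A gene without a count can hold up to 0.402 CPM in replicate 1 and 0.602 CPM in replicate 2, the level of 3 counts. These floors and all intervals cover counting error only, since reads are not independent molecules.

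Of 45461 gene names in the tables, 7291 (16.04%) were detected and 26005 had no count in either library. Among the 19268 protein-coding genes, 6842 were detected and 4800 (24.9%) were expressed, while 11253 lay below an RPKM of 1 in both libraries and 3290 had no count. Another 142 coding genes were above the cutoff in only 1 of the libraries. The expressed coding genes had a median RPKM of 58.2, with the middle 50% of them between 38.6 and 93.8. An RPKM of at least 100 was reached in both libraries by 1019 coding genes and of at least 1000 by 118. Most expressed genes lay within a narrow band, and a small set stood far above it.

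The labelled tissue was set beside marker genes. These markers were chosen with earlier results of these data known, so they are no independent check of the label. All 6 germline markers were expressed (glh-1, pgl-1, gld-1, nos-3, csr-1 and htp-3), with a summed level of 4004 and 3900 CPM, and so were all 4 oogenesis markers, with 5693 and 6219 CPM. None of 4 single sperm markers was detected, at 6.16 and 2.81 CPM in all. The sperm list also held the major sperm protein family, of which 8 of 31 genes were detected, with 707 and 220 counts. Markers of the distal tip cell summed to 0.134 and 0.602 CPM, with hlh-12 at 0. For other somatic tissues the summed levels were 250 and 201 CPM for 7 intestine markers (elt-2 at 0), 76.0 and 38.8 CPM for 4 gonadal sheath markers, 68.4 and 37.9 CPM for 5 muscle markers, 14.9 and 7.63 CPM for 4 hypodermis markers, and 73.6 and 83.7 CPM for 6 neuron markers. The intestine sum was almost wholly vit-2, with 118 and 113 CPM, and vit-6, with 127 and 84.7 CPM. The sums of intestine, sheath, muscle and hypodermis markers were higher in replicate 1, and so were those of the sperm and germline markers. Those of the oogenesis, distal tip and neuron markers were higher in replicate 2. The neuron sum was almost wholly snb-1, with 71.1 and 80.9 CPM. The larger class of 157 neuronal genes, of which 6 were detected, was higher in replicate 1, with 0.0347% and 0.0301% of the counts. That class includes unc-18, which was itself higher in replicate 1 and of which the strain carries an added copy. The part of these tissues in the differences between the replicates was not tested. In such bulk libraries, fewer cells of a type and less RNA per cell cannot be told apart.

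The counts were concentrated on few genes. A single gene took 1.61% and 1.51% of the gene counts, the top 10 took 6.66% and 6.18%, the top 100 took 24.1% and 23.1%, and the top 1000 took 63.9% and 63.2%. A share of 50% of the counts was reached with 511 genes in replicate 1 and 533 in replicate 2, and 99% with 5904 and 5985 genes. The curves of both libraries ran close together over their whole length.

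**Figure D1:**
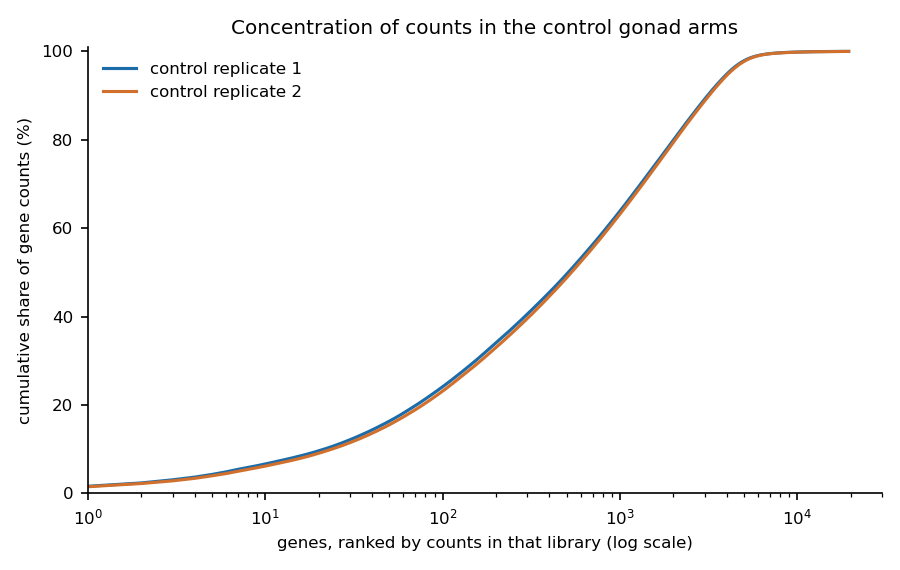
Cumulative share of gene counts (percent) against the number of genes, ranked within each library on a log scale, with 1 line for each control replicate. The lines nearly coincide and cross 50% at 511 and 533 genes.

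The gene with the most counts was eef-1A.1, which encodes the elongation factor that delivers aminoacyl-tRNA to the ribosome, with 16072 and 15085 CPM. It was followed by eef-2, the translocation factor, with 7564 and 7254 CPM. Protein chaperone genes came next among coding genes, hsp-1 (HSP70) with 6036 and 6013 CPM and hsp-90 with 5713 and 5715 CPM, together with the eggshell gene cbd-1 with 5750 and 5724 CPM. These differed by less than 1.5-fold between the libraries. The remaining coding genes among the 25 with the highest mean CPM were rpl-3, rpl-4, rplp-0 and rpsa-1 of the ribosome, the ribosome-bound scaffold gene rack-1, eef-1G, the poly(A)-binding protein gene pab-1, the germline RNA-binding genes cgh-1 and cey-2, the eggshell gene cpg-1, the histone genes his-48, his-66 and his-58, the polyubiquitin gene ubq-1, the ubiquitin ligase gene eel-1, the dynein heavy chain gene dhc-1 and vig-1. These genes had between 2285 and 4417 CPM in replicate 1. Length entered this order: the top 100 coding genes by CPM had a median transcript length of 864.5 nt, against 505.5 nt for the top 100 by RPKM and 1536 nt for all expressed genes, and 65 genes were in both lists.

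Per length, the order changed. Above all other coding genes stood eef-1A.1, with an RPKM of 10457 and 9815, but histone genes filled most of the ranks behind it. The H2B genes his-48, his-66 and his-58 had an RPKM of 7365 and 6798, 6827 and 6395, and 6850 and 6324. Reads of the GFP::H2B transgene cannot be told apart from those of H2B genes. Of the 25 coding genes with the highest mean RPKM, 13 were core histone genes, all on chromosome IV, and 11 encoded ribosomal proteins, led by rps-25 with 4491 and 3969 and rps-23 with 4007 and 3750. Values of the next histone genes overlapped between neighbours in the order, and no rank among his-64, his-46, his-56 and his-45 was clear of the spread between libraries.

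**Figure D2:**
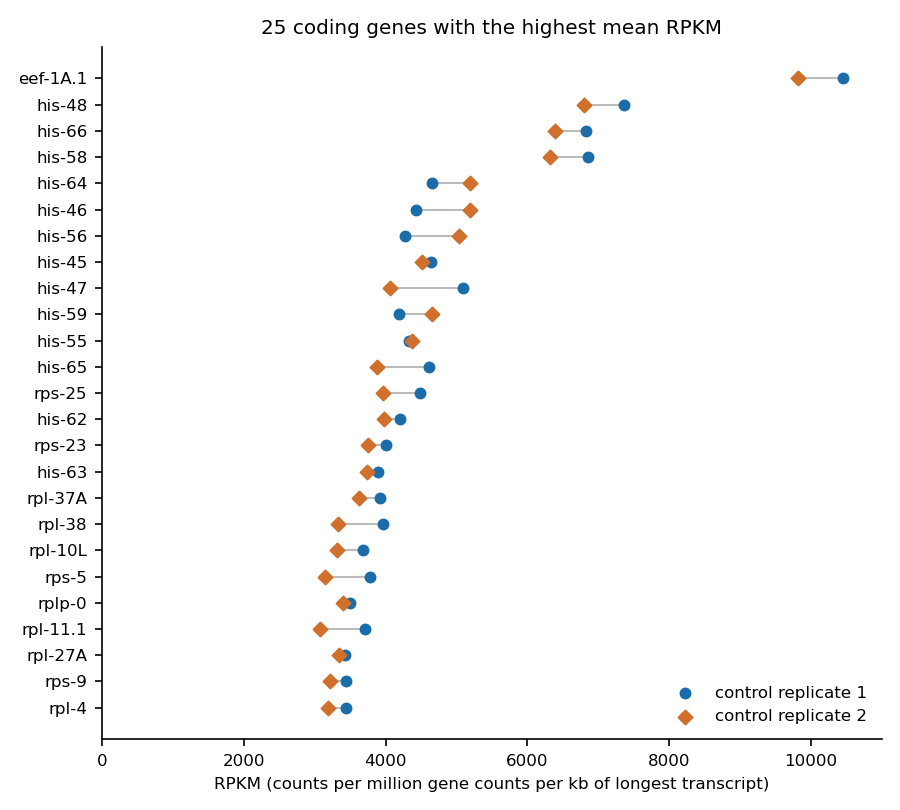
RPKM of the 25 coding genes with the highest mean, on a linear axis from 0, with a circle for control replicate 1 and a diamond for control replicate 2. The gene eef-1A.1 stands apart at 10457 and 9815, and histone and ribosomal protein genes make up the rest, with rpl-4 lowest at 3441 and 3186.

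Among classes of genes with a shared role, proteins of the cytosolic ribosome took the largest share, 11.4% and 10.6% of gene counts. Of 83 such genes, 79 were expressed, with a median RPKM of 2222. The small subunit genes (30 of 30 expressed) and the large subunit genes (49 of 53) had a median RPKM of 2494 and 2112. The paralog rpl-11.2 had an RPKM of 23.8 and 13.2, far below rpl-11.1 with 3706 and 3074. The genes rpl-41.1 and rpl-41.2 were lowest among the other detected members, at 322 and 223 and at 200.3 and 293. Further genes of the ribosome, rpsa-1 (3126 and 2798) and fau-1 (2499 and 2538), carry symbols outside the list and were named after their values were seen. None of the 80 detected ribosomal genes was apart by 2-fold. Over all 7291 detected genes 3.33% were, and 15 of the 1174 genes with a mean RPKM of at least 100. The ribosomal class share was lower in replicate 2.

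**Figure D3:**
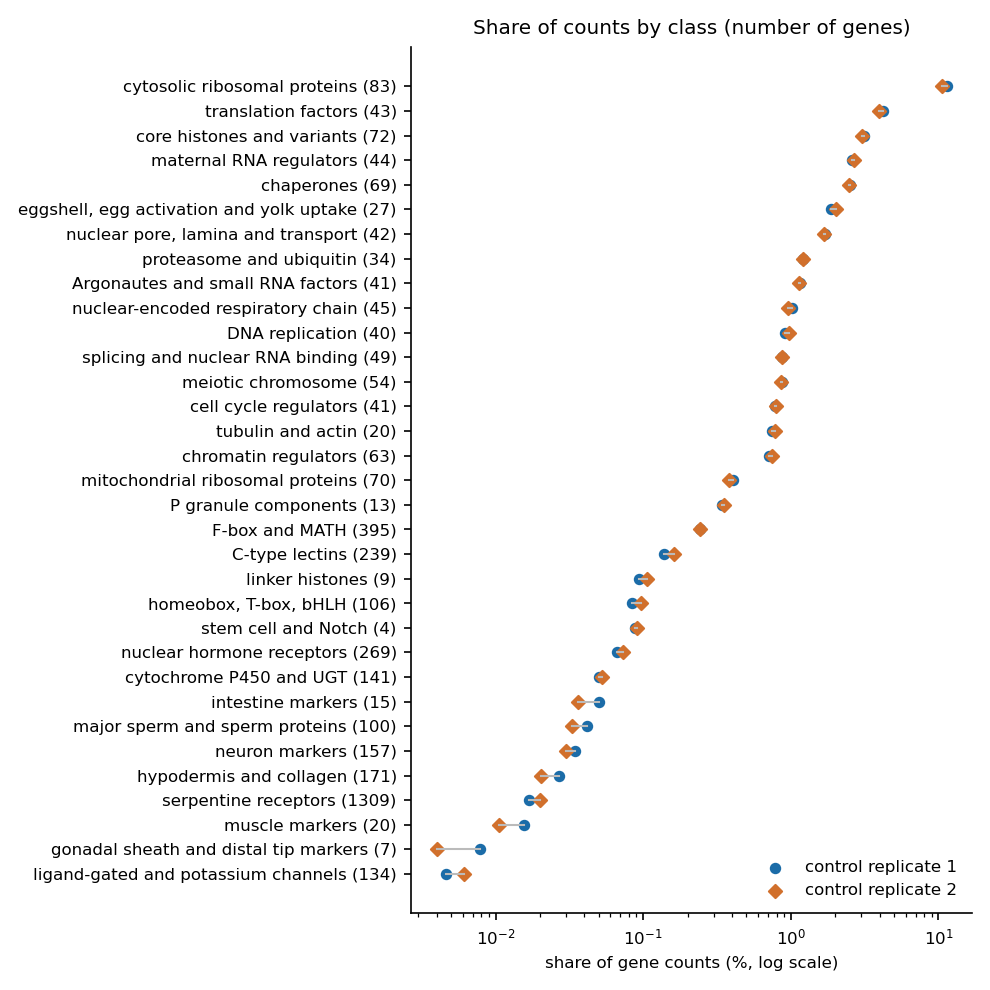
Share of gene counts (percent, log scale) taken by each class of genes in control replicate 1 (circle) and replicate 2 (diamond), with the number of genes in each class in brackets. Ribosomal proteins lead with 11.4% and 10.6%, and points of a class separate most among the classes with small shares: sheath and distal tip, muscle, intestine, hypodermis and sperm genes lie further right in replicate 1, and channel genes in replicate 2 (0.00462% and 0.00608%).

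Translation factors took 4.19% and 3.99% of the counts, and 37 of 43 were expressed. Besides eef-1A.1 and eef-2 the leading members were eef-1G (RPKM of 1932 and 1949), iff-1 (1471 and 1544), pab-1 (1326 and 1181) and eef-1B.1 (1186 and 1220). The germline form of eIF5A, iff-1, contrasted with iff-2, which was at 9.51 and 4.16. Similarly pab-1 was far above pab-2, at 3.95 and 4.32, and the cap-binding gene ife-4 was at 3.47 and 2.60. Mitochondrial ribosomal proteins, although 68 of 70 were expressed, took only 0.407% and 0.381%, with a median RPKM of 57.2, close to the median of expressed genes. Nuclear genes of the respiratory chain (38 of 45 expressed; 1.02% and 0.953%) were led by the ATP synthase genes atp-2 (1015 and 953) and atp-1 (898 and 884), and the germline ATP synthase subunit gene asb-1 was at 394 and 341. The 14 genes of the mitochondrial genome, 12 of them coding, were listed at 0 in both libraries. As these genes are used by every cell, the zero cannot be read as absence of their RNA.

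Core histone genes and variants took 3.11% and 3.02% of the counts, and 65 of 72 were expressed. Replication-dependent histone genes supply new chromatin in dividing cells and to the oocyte. Levels within the class, variants included, differed by chromosome: the 23 genes on chromosome IV took 2.89% and 2.81%, with a median RPKM of 4088, whereas the 27 genes on chromosome V took 0.0834% and 0.107%, with a median of 55.2. The 14 genes on chromosome II had a median of 64.8. Among variants, the H2A.Z gene htz-1 had an RPKM of 601 and 731 and the H3.3 gene his-72 had 348 and 296, while his-71 was at 2.04 and 1.36, his-70 at 0 and 0.496, and his-73 at 0. Of the linker histones, hil-4 (513 and 581), hil-5 (455 and 498) and hil-2 (62.5 and 84.5) were expressed and the other 6 were not, with his-24 at 4.64 and 5.87. Copies of a histone gene are almost identical. Reads set aside for several alignments were listed as 0 in both libraries. Whether such reads were removed earlier or counted is not given in the sources used here, so the split of counts between copies is uncertain. Reads from the GFP::H2B transgene and from the endogenous H2B genes cannot be told apart.

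The control replicates differed in some of the core histone genes. At least 2-fold higher in replicate 1 were 12 of its 69 detected genes, where the same was true of 1.48% of the 7291 detected genes, and 2 were at least 2-fold higher in replicate 2, against 1.85% of detected genes. All 12 lay on chromosome II, which holds 13 detected histone genes. Counts were 175 and 10 for his-14, 177 and 14 for his-10, 201 and 19 for his-26, 600 and 100 for his-11, 627 and 109 for his-15, 167 and 32 for his-16, and 670 and 131 for his-44. The exception, his-42, had an RPKM of 54.1 and 45.4. As a group, chromosome II histone genes took 0.0615% of the counts in replicate 1 and 0.0188% in replicate 2, with a median log2 difference of -1.77 (replicate 2 minus replicate 1). In the same libraries the median difference was -0.04 for the chromosome IV genes and 0.13 for those on chromosome V. With 1 library against 1, these differences compare 2 libraries and were not tested. The exceptions in the other direction were his-67 on chromosome I, with 921 and 1409 counts, and his-41 on chromosome V.

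RNA regulators that control maternal mRNAs took 2.61% and 2.69%, with 40 of 44 expressed. The Y-box gene cey-2 led with an RPKM of 2636 and 2666, followed by the DEAD-box helicase gene cgh-1 (1511 and 1446), car-1 (1310 and 1359), cey-3 (1070 and 1093), the meiotic translational repressor gene gld-1 (629 and 616) and pos-1 (548 and 603). At the low end were cpb-1 (46.6 and 50.6), fog-1, which promotes sperm fate (15.5 and 14.1), and puf-9 (6.93 and 6.04). Of 10 PUF family genes, 9 were expressed. Components of P granules, the RNA granules of germ cells, took 0.340% and 0.350%. All 13 were detected and 11 were expressed, with pgl-1 (266 and 267), deps-1 (224 and 210.2), pgl-3 (178 and 182) and glh-1 (134 and 140) at the top and meg-2 (8.005 and 12.9) and meg-4 (14.1 and 18.7) at the bottom.

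Argonautes and other small RNA factors took 1.146% and 1.14% of the counts, and 33 of 41 were expressed. The nuclear Argonaute gene hrde-1 had the highest level (RPKM of 513 and 527), then wago-1 (465 and 473), the piRNA-binding Argonaute gene prg-1 (302 and 274), csr-1 (259 and 229), ppw-2 (239 and 203) and wago-4 (173 and 174). The somatic microRNA Argonaute gene alg-1 was at 3.88 and 5.50, and sago-1 and rrf-2 were lower still. The small RNAs themselves were outside the reach of these libraries: of 15363 piRNA loci none was detected, with 221 and 259 counts over all of them.

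Genes of meiotic chromosomes were expressed almost without exception (53 of 54), at levels near the middle of the expressed range. Their median RPKM was 54.3, and htp-1, a HORMA protein of the chromosome axis, led with 158 and 147, followed by xnd-1 (128 and 144), smc-6 (129 and 134), him-1 (133 and 116), msh-6 (122 and 125) and scc-3 (125 and 121). The lowest were syp-1 (21.4 and 20.98), which encodes a central part of the synaptonemal complex, him-5 (15.4 and 17.1) and zhp-4 (14.06 and 11.997). This class took 0.869% and 0.864% of the counts, less than a single pair of genes, eef-1A.1 and eef-2. The 4 genes of the stem cell pool were all expressed: sygl-1 at 156 and 152, the Notch receptor gene glp-1 at 109 and 114, lst-1 at 84.1 and 89.6, and lag-1, the transcription factor of the pathway, at 35.4 and 36.5.

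DNA replication genes (38 of 40 expressed; 0.913% and 0.969%) were led by the ribonucleotide reductase gene rnr-2 (395 and 455) and the PCNA gene pcn-1 (406 and 438), followed by mcm-7, rnr-1, mcm-3 and mcm-2. All 6 genes of the MCM helicase were expressed, with a median RPKM of 216. Among cell cycle regulators, 33 of 41 were expressed, and B-type cyclins, Cdk1 and Polo-like kinases were highest: cyb-3 (451 and 488), plk-3 (292 and 278), cdk-1 (272 and 262), plk-1 (262 and 261) and cyb-2.2 (225 and 232). The lowest detected members were cdk-4 (4.79 and 2.94), cya-2 (4.26 and 3.46) and the cyclin D gene cyd-1 (1.46 and 2.79), while the cyclin E gene cye-1 was at 132 and 137 and cdk-2 at 31.1 and 30.2. Chromatin regulators (42 of 63 expressed) had a median RPKM of 38.4, and mrg-1, spr-2 and set-9 led with 136 and 134, 124 and 138, and 114 and 130.2. No count was found for set-8 and set-11.

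Protein folding and turnover were well represented. The class of chaperones took 2.50% and 2.49%, with 48 of 69 expressed. After hsp-1 and hsp-90, the mitochondrial chaperones hsp-60 (610 and 654) and hsp-6 (413 and 474) were highest within this class. The small heat shock gene sip-1, whose symbol lies outside the class, was higher than these, with 979 and 1900. All 8 CCT chaperonin genes were expressed. In contrast, none of the 8 genes of the stress-induced HSP-16 family was detected, and their median RPKM was 0.585. All 34 genes of the proteasome and ubiquitin class were expressed, at a median of 225. The polyubiquitin gene ubq-1 was highest, with 810 and 966, and the proteasome subunit gene rpn-6.2 was lowest, with 16.8 and 19.3. Splicing and nuclear RNA-binding genes (47 of 49 expressed) and nuclear pore, lamina and transport genes (41 of 42) had a median of 83.8 and 103, with hrpa-1 at 327 and 329 and ran-1 at 699 and 596. Tubulin and actin genes showed a sharp division: 9 of 20 were expressed, led by tbb-2 (1085 and 1128), act-2 (1078 and 1077) and tba-2 (938 and 1056), while 9 were below an RPKM of 1 and tba-6 had no count. Reads from the tbb-2 3′ UTR of the transgene cannot be told apart from those of tbb-2, and the actin genes are near-identical in sequence.

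**Figure D4:**
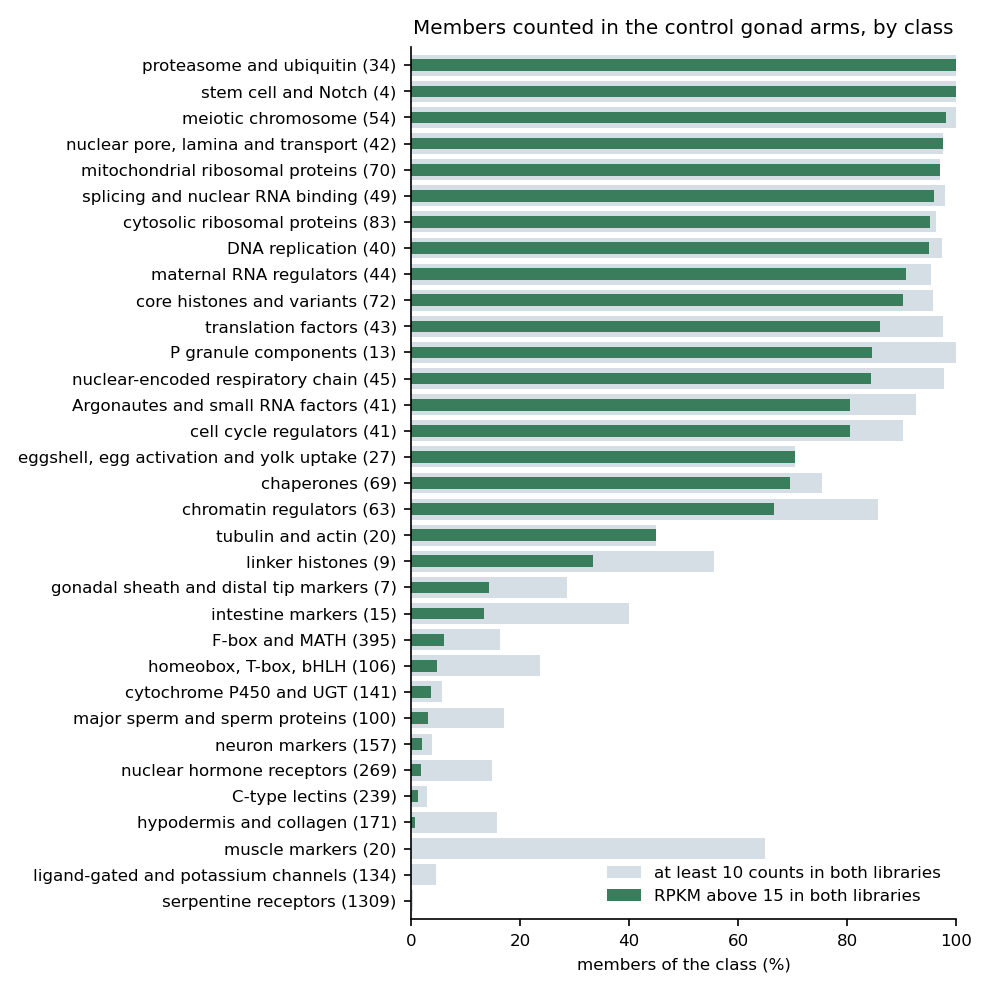
Percent of the members of each class with at least 10 counts in both libraries (wide pale bar) and with an RPKM above 15 in both (narrow green bar), with the number of genes in brackets. Proteasome, meiotic, nuclear pore and ribosomal classes are expressed almost whole, whereas none of the 1309 serpentine receptors, 134 channels or 20 muscle genes is expressed.

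A few members of these classes were nearly without counts although their partners were abundant. Among 402 genes of the ribosomal, translation, proteasome, splicing, nuclear pore, replication and cell cycle classes, 11 were below an RPKM of 1 in both libraries. Without a count were rpl-13A of the large ribosomal subunit, the origin recognition gene orc-4 and the Cdk regulatory subunit gene cks-1. Only 1 and 0 counts fell on eif-1, 2 and 1 on rpl-42, 1 and 3 on the SR protein gene rsp-4, 1 and 1 on mrps-16, 0 and 1 on mrpl-12, and 7 and 1 on npp-26. The other members with so few counts were the paralogs cdc-25.4 and wee-1.1. Exons of another gene covered from 0% to 27.8% of the exons of these 11 genes in the WBcel235 annotation, and the annotation used for counting was an older one. For genes of complexes that every cell uses, a listed 0 cannot be read as absence.

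Products of oogenesis were prominent. Genes of the eggshell, egg activation and yolk uptake took 1.87% and 2.01% of the counts, with 19 of 27 expressed. The chondroitin proteoglycan genes cpg-1 (RPKM of 1333 and 1538) and cpg-2 (1254 and 1505), the chitin-binding gene cbd-1 (1362 and 1356.2), the yolk receptor gene rme-2 (716 and 758), cpg-3 (400 and 515) and egg-1 (442 and 469) were highest. No member between perm-5 (68.4 and 63.95) and an RPKM of 1 was found, as the other 8 genes were below 1 in both libraries, and cpg-7, cpg-18 and cpg-20 had no count. Few genes of the sperm list passed the cutoff: 3 of 100 were expressed, spe-39 (62.2 and 65.0), spe-48 (28.7 and 31.1) and spe-44 (24.1 and 20.1). Most others were low but not at the bottom, as 31 of the 100 were below an RPKM of 1 in both libraries. Their median RPKM was 3.30 and 1.25, against 0.340 and 0.380 for all coding genes. Of the 31 genes of major sperm proteins 8 were detected and none was expressed, and together they took 0.00946% and 0.00442%. Their median RPKM was 8.37 and 4.18. The yolk protein genes, which are transcribed in the intestine, were near the cutoff, with vit-2 at 24.0 and 22.9 and vit-6 at 25.04 and 16.8, while mtl-1 and elt-2 had no count. None of 20 muscle genes was expressed, with the tropomyosin gene lev-11 highest at 7.93 and 7.19, and of 7 sheath and distal tip genes only the gap junction gene inx-8 was, at 41.4 and 20.7.

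Families of somatic signaling and defense were barely counted. Of 1309 serpentine chemoreceptor genes, 4 were detected, none was expressed and 471 had no count, and the highest of them, sri-40, had 371 and 52 counts. No gene of 134 ligand-gated and potassium channels and none of 38 insulin-like genes was expressed. Of 269 nuclear hormone receptors 5 were expressed, with nhr-86 (44.97 and 52.0), nhr-49 (45.4 and 39.0) and nhr-23 (41.8 and 39.4) at the top. Homeobox, T-box and bHLH factors were expressed in 5 of 106 cases, all of them homeobox genes, led by ceh-100 (65.3 and 65.2), ceh-38 (48.2 and 50.9) and ceh-92 (43.2 and 53.6). Of 141 cytochrome P450 and UDP-glucuronosyltransferase genes 5 were expressed, among them cyp-31A2 (84.0 and 76.6) and its near-identical relatives cyp-31A5 and cyp-31A3. Of 157 neuronal genes 3 were expressed: snb-1 (88.1 and 100.3), unc-18 (86.9 and 64.2), of which the strain carries an added copy, and nlp-36 (41.5 and 28.0). The one collagen above the cutoff was col-140 (17.5 and 15.1), of 171 hypodermal and collagen genes.

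Within such families, single genes reached high levels. The C-type lectin gene clec-87 had an RPKM of 960 and 1154, clec-88 203 and 240.1, and clec-91 177 and 177, and none of the other 236 lectin genes was expressed. F-box and MATH genes had 24 of 395 members above the cutoff, with fbxa-215 (168 and 166), bath-42 (156 and 159), bath-40 (133 and 120) and math-33 (107 and 110) leading. Over all 97 families of at least 20 coding genes that share a symbol prefix, 12 had at least 80% of their genes expressed and 43 had none. The 12 were those of the cytosolic and mitochondrial ribosome (rps, rpl, mrps, mrpl), nuclear pore (npp), translation initiation (eif), histones (his), vesicle sorting and secretion (vps, sec), DnaJ chaperones (dnj), Mediator (mdt) and the vacuolar ATPase (vha).

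The classes held 37.3% and 36.5% of the gene counts, and coding genes in no class held 58.5% and 59.7%. The highest of these, chosen after their values were seen, included the nucleoside diphosphate kinase gene ndk-1 (RPKM of 2352 and 2340), the cyclophilin gene cyn-7 (2133 and 2229), the ADP/ATP translocase gene ant-1.1 (1881 and 1795) and the 14-3-3 gene par-5 (732 and 756). The small heat shock gene sip-1 differed most among them, with 979 and 1900.

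Noncoding RNA genes, pseudogenes left out, took 2.72% and 2.35% of the counts, and 109 of 23661 were detected. Pseudogenes took a further 0.783% and 0.808%, with 228 of 2004 detected. The srpr genes, which encode the RNA of the signal recognition particle that targets nascent proteins to the endoplasmic reticulum, took 1.62% and 1.19% of the gene counts. The near-identical copies srpr-2.1 and srpr-2.2 had 7038 and 5029 CPM and 6139 and 5028 CPM, so their separate values are uncertain. The RNase P RNA gene rpr-1 was higher in replicate 2, with 2079 and 2876 CPM. Of 141 snoRNA genes 59 were detected (0.505% and 0.512%), and 19 of 119 snRNA genes (0.147% and 0.0983%). The snRNAs lay lower in replicate 2, with a median log2 difference of -0.79. The 21 rRNA genes, of which 2 are mitochondrial, were listed at 0, which cannot be read as absence of their RNA or as a measure of the depletion. None of 609 tRNA genes was detected.

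The autosomes supplied nearly all of the RNA. Shares were 24.2% and 24.0% for chromosome I, 15.3% and 15.4% for II, 24.7% and 24.5% for III, 20.99% and 20.93% for IV, and 12.98% and 13.1% for V. The X chromosome supplied 1.26% and 1.42%, although it carries 13.6% of coding genes. On X, 56 of 2627 coding genes (2.13%) were expressed, against 14.8% on chromosome V and 43.9% on chromosome III, the lowest and highest autosomes. Expressed X-linked genes had a median RPKM of 36.7, below the 55.6 to 63.1 of the autosomes. None of the top 100 coding genes by RPKM and 3 of the top 1000 were X-linked, and the highest of them were F23A7.8 (279 and 394), C39D10.7 (165 and 102), and the transporter gene mrp-4 (105 and 122.9).

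Over the 7291 detected genes, the 2 control libraries had a Pearson r of 0.986 on log2 CPM and a Spearman rho of 0.990. These are correlations across genes, which are not independent replicates. The median absolute log2 difference was 0.15, and 88.9% of genes lay within 1.5-fold. In all, 135 genes were at least 2-fold higher in replicate 2 and 108 in replicate 1. Of the 1174 genes with a mean RPKM of at least 100, 15 were at least 2-fold apart and 95.7% lay within 1.5-fold. The spread exceeded counting error, with a chi-square of 7.56 per degree of freedom, and edgeR's common dispersion gave a biological coefficient of variation of 11.3%.

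The genes with the largest fold between the libraries and at least 100 counts in the higher were listed up to 10 per direction. Histone genes took most of the places higher in replicate 1, so further genes at least 2-fold apart can lie outside the list. Genes named below are from this list, away from the histones. Higher in replicate 2 were F13H8.8 with 21 and 177 counts, the snoRNA Y43F4B.11 with 137 and 253, T05A12.4 with 143 and 258, the snoRNA R166.7 with 106 and 189, M151.7 with 105 and 158, and lea-1, of the late embryogenesis abundant family, with 2270 and 3266. Higher in replicate 1, besides sri-40, were ost-1 (osteonectin, a matrix protein of muscle and other somatic tissue) with 148 and 21 counts and the cullin gene cul-5 with 764 and 129. Most genes beyond 2-fold had low counts, and the points narrowed around 0 as the level rose.

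**Figure D5:**
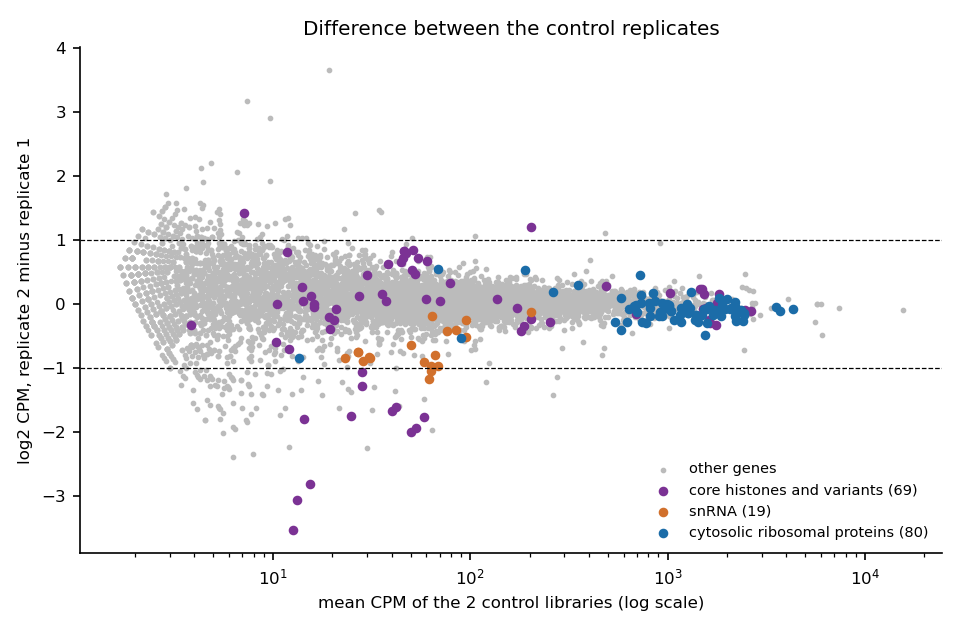
Log2 difference in CPM (replicate 2 minus replicate 1) against mean CPM on a log scale for the 7291 detected genes, with core histone genes in purple, snRNAs in orange, ribosomal protein genes in blue and dashed lines at 2-fold. A group of purple points reaches from below -1 to -3.54, the value of his-14. Ribosomal genes stay within 2-fold, as do all but 3.33% of the detected genes.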

How the data were processed

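RNA-seq counts of the 2 control libraries were used, grouped by the sample labels. Per the methods and the submitters' processing notes, single-end reads of 50 bp were mapped with TopHat2 (transcripts of WS220), and the authors deposited raw HTSeq counts for each gene. Tool versions and the strand setting of HTSeq are not given in the sources used here. Both libraries listed 0 reads set aside for several alignments, but whether such reads were removed earlier or counted is not given. The library kit does not mark strand, so overlapping and antisense genes cannot be told apart. The rows for reads on no gene (13.7% in each library) and ambiguous reads (1.99% and 1.91%) were left out of the library totals. The authors' table of comparisons, which holds their fold changes and adjusted p-values, and the other 4 libraries were not used.

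Of 45461 names, 44933 matched a gene of Ensembl release 115 (WBcel235), which gave biotype, chromosome and longest transcript; symbols came from RefSeq. Its coordinates served only to compute transcript length and exon overlap. CPM and RPKM were computed in Python 3.11.15 with pandas 2.3.3; the RPKM cutoff of 15 follows the study's methods. Dispersion was estimated with edgeR 4.0.16, with DESeq2 1.42.0 as an alternative, in R 4.3.3. The estimate was tested on simulated counts in which all genes had the same known spread, which does not cover genes of unequal spread. Exact binomial 95% intervals of class shares reached at most 0.0431 percentage points to either side. Genes were named if among the 25 highest by CPM or by RPKM, the 6 highest or 3 lowest detected of a class, a member without a count, or among 10 per direction with the largest fold between libraries and at least 100 counts in the higher. Subgroups within classes, and paralogs, variants, X-linked, noncoding and near-zero genes named beyond this rule, were chosen after their values were seen. The classes, markers and members were chosen with earlier results of these data known.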

Additional observations from a re-analysis of the deposited data

How the results depend on the processing

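Neither the threshold, the length nor leaving out a library changed the count of expressed genes by over 1.5 times (4790 with the union of exons, 5496 above an RPKM of 5 and 7124 above 1; 4852 to 4890 with 1 library left out). Detected genes numbered 13186 with at least 1 count in both libraries and 5011 with at least 100, and 7441 to 8061 in single libraries. The top 100 genes took 23.1% to 24.1% in single libraries and 19.9% of all reads in the tables. Ribosomal proteins took 10.6% to 11.4% in single libraries and 9.25% of all reads. Genes at least 2-fold apart numbered 243, and 232 under TMM or DESeq2 size factors. They numbered 21 with at least 100 counts in both libraries and 6204 with no filter and a pseudocount of 1 count, which weighs more in the shallower library. At a 1.5-fold limit there were 807, and at 4-fold 15. The coefficient of variation was 11.8% from edgeR's trended dispersion, 12.1% with at least 1 count in either library and 9.24% with at least 100 in both. DESeq2's median gene-wise estimate was at 0.01%, the lower bound of that method. No paired analysis was possible because 1 group was described and no test was made. Depth limits the lowest levels: a gene below 10 counts cannot be placed, and absence of a somatic transcript was not shown.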
